A study of Mus musculus with 8 samples.

Results

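The nuclei described here are layer 6b neurons of the mouse cortex, the glutamatergic neurons that derive from the embryonic subplate. They were chosen by their UMIs in the snRNA-seq libraries. A nucleus needed 200 to 6000 detected genes, more than 1000 UMIs, less than 10% mitochondrially encoded UMIs, at least 1 UMI of *Slc17a7* and at most 1 UMI of *Gad1* and *Gad2* together. It also needed at least 2 of the 3 genes *Cplx3*, *Nxph4* and *Ctgf* detected, with a sum of at least 3 UMIs. The rule was met by 492 of 54343 nuclei that passed the nucleus thresholds (0.905%), out of 56780 barcodes in all. The 492 nuclei were 1.87% of 26261 glutamatergic nuclei and held 5653762 UMIs. The libraries came from cortex of naive C57BL/6J mice aged 6 weeks, 4 wild-type (Wt; *Ifnar1*+/+) and 4 *Ifnar1*-/-, with 2 females (F1, F2) and 2 males (M1, M2) in each genotype. The *Ifnar1*-/- mice carried a global loss of *Ifnar1* and had been backcrossed for more than 20 generations. Each library was compared as the sum of its layer 6b nuclei, 4 against 4, and values of 4 libraries are given in the order F1, F2, M1, M2.

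Layer 6b lies between layer 6a and the white matter and holds neurons that survive from the subplate, among the earliest-born cells of the cortex. Its cells are known for complexin 3, neurexophilin 4 and connective tissue growth factor, for dopamine and orexin receptors, and for projections to other cortical areas and to thalamus. They are few in the adult cortex, which limits what a library of the whole cortex holds of them.

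Wt libraries held 42, 42, 69 and 94 layer 6b nuclei and *Ifnar1*-/- libraries 30, 41, 111 and 63, or 247 against 245 in all. The smallest and the largest number were both in *Ifnar1*-/- libraries, F1 and M1. As a share of the glutamatergic nuclei the values were 1.55%, 1.40%, 1.55% and 3.01% in Wt and 0.83%, 2.14%, 2.71% and 1.87% in *Ifnar1*-/-, with full overlap of the genotypes. The mean share was 1.88 ± 0.755% against 1.89 ± 0.788% (mean ± SD, 4 libraries each), and the exact permutation p was 0.943, where the smallest p that 4 against 4 can give is 0.0286. With the replicate label F1, F2, M1, M2 as a block, the exact permutation p was 0.875, where the smallest possible p is 0.125. Males had more layer 6b nuclei per library than females (84.3 ± 22.3 against 38.8 ± 5.85; exact permutation p = 0.0286), and all 4 male libraries lay above all 4 female ones. The rule itself uses *Ctgf*, which was higher in the layer 6b sums of all 4 males, so the number of nuclei by sex is not independent of the level of that gene. The share differed less clearly by sex, 2.29 ± 0.684% in males and 1.48 ± 0.539% in females, and the sexes overlapped (exact permutation p = 0.143).

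Median UMIs per layer 6b nucleus were 14746, 12347, 8918 and 10443 in Wt and 7499, 14966, 10018 and 11243 in *Ifnar1*-/-. The lowest and the highest median were both *Ifnar1*-/- females. Means were 11614 ± 2516 and 10932 ± 3109 UMIs (exact permutation p = 0.714). In every library the layer 6b nuclei were deeper than all other glutamatergic nuclei, whose medians ran from 5836 in *Ifnar1*-/- F1 to 13206 in *Ifnar1*-/- F2. The rule counts raw UMIs. Nuclei were also thinned to 4000 UMIs, with 2242 shallower glutamatergic nuclei left out, and the rule was applied again. It was then met by only 85 nuclei in Wt and 77 in *Ifnar1*-/-, with as few as 5 in *Ifnar1*-/- F2, and the shares were 0.685%, 0.578%, 0.858% and 1.47% in Wt and 0.485%, 0.404%, 1.45% and 0.679% in *Ifnar1*-/-. The thinned means were 0.898 ± 0.399% and 0.754 ± 0.477% (exact permutation p = 0.514). Mitochondrially encoded genes held 0.161%, 0.283%, 0.363% and 0.463% of the layer 6b UMIs in Wt and 0.322%, 0.127%, 0.323% and 0.696% in *Ifnar1*-/-. The genotypes overlapped (0.318 ± 0.128% against 0.367 ± 0.238%; exact permutation p = 0.771), while the 4 male values lay above the 4 female ones (0.462 ± 0.167% against 0.223 ± 0.0941%; exact permutation p = 0.0286). The other glutamatergic nuclei showed the same order of the sexes, 0.526 ± 0.240% against 0.211 ± 0.0887%.

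**Figure D1:**
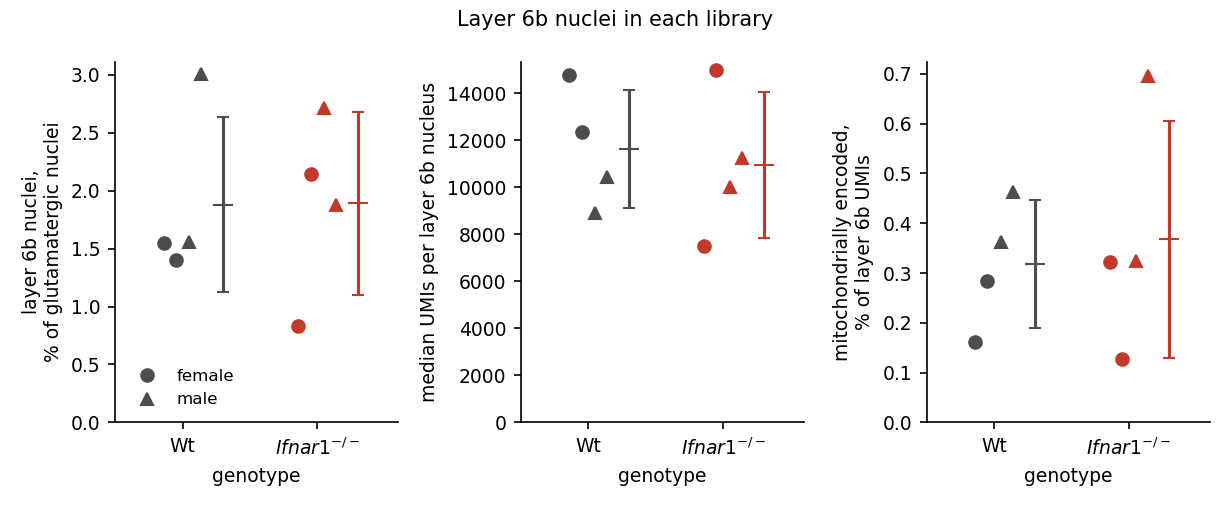
Layer 6b nuclei in each of the 8 libraries: share of the glutamatergic nuclei, median UMIs per nucleus and share of UMIs from mitochondrially encoded genes. Circles are females, triangles males; bars give mean and SD of 4 libraries.

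Within the chosen nuclei, *Cplx3* with *Ctgf* alone was found in 179 (36.4%), *Nxph4* with *Ctgf* alone in 165 (33.5%), all 3 genes in 142 (28.9%) and *Cplx3* with *Nxph4* alone in 6 (1.22%). *Moxd1*, which the rule did not use, stood at 109, 124, 156 and 86.4 CPM (UMIs scaled to equal totals) in these sets in the same order. The median marker sum was 8 UMIs and the largest 45. Nuclei just inside the rule, with a sum of exactly 3, numbered 46 and held 85.8 CPM of *Moxd1*, 164 of *Svil* and 1135 of *Inpp4b*, against 131, 256 and 1527 in the 446 nuclei with a larger sum. Just outside lay 299 glutamatergic nuclei with at least 3 UMIs of a single marker, with 74.6 CPM of *Moxd1* and 147 of *Svil*. A further 58 nuclei had 1 UMI each of 2 markers, with 34.4 CPM of *Moxd1* and 195 of *Svil*. *Moxd1* thus fell with each step across the edge of the rule, while *Svil* did not. The marker part of the rule was met by 532 nuclei of any class, of which 40 failed the glutamatergic part. Of 6237 oligodendrocyte nuclei, a class that should lack these genes, 2.34% had a UMI of any of the 3 and 2 nuclei met the marker part, at median depths of 1507 to 2913 UMIs per library. Scrublet called 25 of the 492 nuclei doublets (5.08%), against 4.30% of all kept nuclei. Between 3 and 29 barcodes were shared by a pair of libraries, 360 over the 28 pairs, and none of them belonged to a layer 6b nucleus in both libraries.

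*Moxd1* was used to check the label, together with 15 further layer 6b genes from outside the rule. *Moxd1* (chr10:24223517–24302790, protein coding; coordinates are GRCm38/mm10) stood at 133, 127, 121 and 131 CPM in the layer 6b sums of Wt and at 66.4, 143, 144 and 102.5 in those of *Ifnar1*-/-. The lowest value was that of *Ifnar1*-/- F1, the library with the fewest nuclei. Over the 8 libraries the mean was 121 ± 25.7 CPM, against 1.20 ± 0.872 in nuclei of corticothalamic type and 3.21 ± 0.975 in all other glutamatergic nuclei. A UMI of *Moxd1* was present in 51.6% of layer 6b nuclei, 0.764% of corticothalamic-type nuclei, 1.79% of other glutamatergic nuclei and 0.433% of oligodendrocyte nuclei. The median depth of the libraries ran from 7499 to 14966 UMIs in layer 6b, from 5600 to 12912 in corticothalamic-type nuclei, and from 1507 to 2913 in oligodendrocyte nuclei.

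*Svil* (chr18:4920540–5119299) gave 230.2, 245, 220.0 and 287 CPM in Wt layer 6b sums and 357, 294, 224 and 197 in *Ifnar1*-/-, so the lowest and the highest library shared a genotype. The mean was 257 ± 52.4 CPM, against 14.8 in corticothalamic-type and 10.1 in all other glutamatergic nuclei, and a UMI was present in 68.5%, 5.92% and 4.80% of nuclei. *Inpp4b* (chr8:81342556–82127914) was the most abundant gene of the list, at 1489, 1707, 1233 and 1310 CPM in Wt and 1818, 2088, 1333 and 1460 in *Ifnar1*-/-. Its comparison levels were 131 CPM in corticothalamic-type and 202 in all other glutamatergic nuclei. *Kcnab1* (chr3:65109384–65378223) ran from 994.5 to 1533 CPM in layer 6b, both in *Ifnar1*-/- libraries, and averaged 78.8 and 244 CPM in the comparison classes. *Tmem163* (chr1:127486546–127679548) stood at 401, 387, 396 and 511 CPM in Wt and 324, 505, 346 and 376 in *Ifnar1*-/-. It was also found in nuclei of *Car3* type (264 CPM), and less in corticothalamic-type nuclei (22.5). *Lpar1* (chr4:58435255–58553898) averaged 150.5 ± 30.4 CPM, against 12.5 and 14.1 in the comparison classes. A UMI of *Lpar1* was seen in 64.4% of layer 6b nuclei but also in 41.8% of the shallower oligodendrocyte nuclei, which transcribe the gene.

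*Cdh10* (chr15:18818947–19014236) averaged 863 ± 103 CPM in layer 6b, 133 in corticothalamic-type and 474 in all other glutamatergic nuclei. *Nr4a2* (chr2:57106830–57124003) separated the layer 6b nuclei (102 ± 30.3 CPM) from corticothalamic-type nuclei (15.9) but not from *Car3*-type nuclei (117). *Drd1* (chr13:54051183–54055705), the dopamine receptor gene, gave 50.3, 49.8, 74.9 and 96.9 CPM in Wt and 62.2, 61.1, 91.9 and 60.1 in *Ifnar1*-/-. Its mean of 68.4 ± 17.9 CPM stood beside 11.6 in corticothalamic-type and 6.85 in all other glutamatergic nuclei. *Col8a1* (chr16:57624258–57754737) averaged 56.1 ± 16.1 CPM against 14.4 and 14.7, and *Rxfp1* (chr3:79641611–79737880) 101 ± 28.6 against 29.7 and 39.1. Not every gene of the list set the nuclei apart from both comparison classes. *Zfpm2* was lower in layer 6b (606 CPM) than in corticothalamic-type nuclei (1138), *Unc5c* was lower than in all other glutamatergic nuclei (427 against 496), and *Hcrtr2*, the orexin receptor gene, averaged 15.3 ± 8.95 CPM in layer 6b and 24.4 in corticothalamic-type nuclei. Against the class not given here, a UMI was more often present in the deeper layer 6b nuclei. The shares were 85.4% against 43.7% of all other glutamatergic nuclei for *Zfpm2* and 10.4% against 5.38% for *Hcrtr2*. For *Unc5c* they were 83.5% against 35.4% of corticothalamic-type nuclei. *Trh* had 38 UMIs and *Hsd17b2* 5 in all layer 6b nuclei together. All 16 genes of the list had UMIs, 15 reached the level of the profile, and 11 of these 15 were at least 2-fold higher than in corticothalamic-type nuclei in all 8 libraries (median log2 ratio 2.50), beside 1.52% and a median of −0.02 over all 11748 genes compared. Against all other glutamatergic nuclei the count was 9 of 15 (median 1.83), beside 1.47% and a median of −0.03 over 12009 genes.

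**Figure D2:**
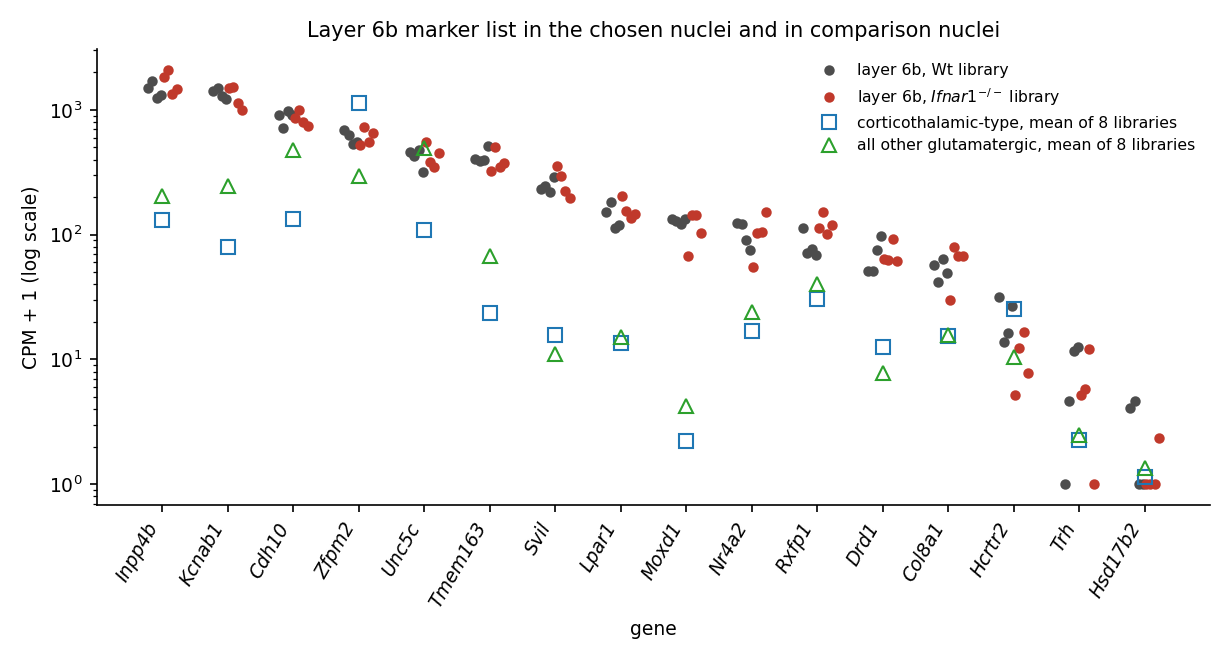
CPM of the layer 6b marker genes that the rule did not use. Dots are the layer 6b sums of the 8 libraries; open squares and triangles are means of corticothalamic-type and of all other glutamatergic nuclei.

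The genes of the rule are given as levels only. *Cplx3* (chr9:57599992–57606281) stood at 97.6, 138, 77.9 and 89.2 CPM in Wt and 99.6, 101, 93.7 and 104 in *Ifnar1*-/-, *Nxph4* (chr10:127525473–127534559) at 61.0, 62.7, 90.2 and 93.1 against 129, 59.5, 91.9 and 53.3. *Ctgf* (chr10:24595442–24598683) varied most, from 195 and 241 CPM in Wt F2 and *Ifnar1*-/- F2 to 1035 and 1329 in Wt M2 and *Ifnar1*-/- M1, and ran from 195 to 384 in the females and from 612 to 1329 in the males without overlap. A UMI of *Ctgf* was found in 98.8% of the nuclei, of *Cplx3* in 66.5% and of *Nxph4* in 63.6%. In corticothalamic-type nuclei the shares were 7.49%, 1.30% and 0.993%, and in oligodendrocyte nuclei 1.39%, 0.593% and 0.401%. *Slc17a7* averaged 412 ± 100.4 CPM, *Gad1* 5.16 and *Gad2* 3.28.

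Corticothalamic genes were split in the layer 6b nuclei. *Foxp2* (chr6:14901349–15441977) averaged 134 CPM against 690 in the corticothalamic-type nuclei, which were chosen by *Foxp2*, *Syt6* and *Rprm*, and *Syt6* 16.9 against 221. *Rprm* had 2.61 CPM against 38.2 and was detected in 3.66% of layer 6b nuclei. *Hs3st4* and *Tle4*, by contrast, were at the corticothalamic level or above it, 3170 against 2854 CPM and 690.4 against 473 CPM, while all other glutamatergic nuclei had 809 and 134. Of the 12 genes of the corticothalamic list, none was at least 2-fold higher than in corticothalamic-type nuclei in all 8 libraries, against 1.52% of all genes. At least 2-fold lower were *Foxp2*, *Syt6* and *Rprm*, which follows from the choice of the comparison nuclei, and 2 of the other 9, *Crym* and *Garnl3*, against 1.17% of all genes.

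Over all genes, the layer 6b sums were compared with the sums of 2618 corticothalamic-type nuclei of the same libraries, as a description without a test. At least 2-fold higher in all 8 libraries were 179 of 11748 genes (1.52%), and at least 2-fold lower 138 (1.17%). Against all 25769 other glutamatergic nuclei, 176 of 12009 genes were higher by this measure (1.47%) and 291 lower (2.42%). With a marker sum of at least 5, which left 386 nuclei, 144 genes were higher than in corticothalamic-type nuclei, 135 of them among the 179; without the doublets the count was 182, with 168 shared. These settings of the profile were chosen after its values were seen. With the genes of the rules left out and 1 CPM added to both sides, *Moxd1* led both comparisons, with a median log2 ratio of 5.93 (5.17 to 6.30 over the 8 libraries) against corticothalamic-type nuclei and 4.85 (4.21 to 5.59) against all other glutamatergic nuclei. *Svil* followed in the second comparison (4.43), and *Ror1* (chr4:100095791–100444765) was among the leading genes of the first, at 101 ± 20.9 CPM against 3.06 (log2 ratio 4.90). *Clic5* (chr17:44188584–44280172) averaged 52.0 ± 22.8 CPM in layer 6b and 1.56 in all other glutamatergic nuclei (4.19).

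*Fbxl7* (chr15:26540459–26895580) averaged 556 ± 156 CPM in layer 6b, 20.4 in corticothalamic-type and 33.8 in all other glutamatergic nuclei, and the lowest layer 6b library still had 366 CPM. The log2 ratios were 4.73 and 4.05. *Gm49267* (chr15:26609503–26644048) is an antisense transcript that lies inside *Fbxl7* on the opposite strand. It averaged 91.6 ± 40.0 CPM, against 1.46 and 3.77, with log2 ratios of 5.41 and 4.12. The genes overlap, so the level of the antisense transcript is uncertain wherever reads of the host gene were placed on the wrong strand.

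Of the 12 genes with the largest ratio to corticothalamic-type nuclei, 5 were lincRNA genes within 1546 kb of chromosome 8 (chr8:49370886–50916997). *C130073E24Rik* (chr8:50743291–50916997) had 573 ± 93.4 CPM in layer 6b, from 424 to 671 over the libraries, and 17.8 in corticothalamic-type nuclei (log2 ratio 5.18). At the other end, *4930555F03Rik* (chr8:49370886–49548994) had 589 ± 171 CPM against 19.6 (4.90). Between them lay *Gm45323* (206 ± 41.8 against 7.83 CPM; 4.78), *Gm2516* (261 ± 39.1 against 9.54; 4.77) and *Gm45321* (336 ± 170.3 against 12.0; 4.74). The interval was drawn around these 5 genes after their ratios were seen. The annotation lists 8 genes in it, and the only other with UMIs in layer 6b was *Gm45341*, which was also at least 2-fold higher in all 8 libraries against both comparison classes (1.52% and 1.47% of all genes were), at 105 CPM against 4.20 in corticothalamic-type and 11.3 in all other glutamatergic nuclei. *Gm45322* and *Gm45455*, which overlap *Gm45321* and *Gm45341* on the same strand, had no UMIs in any of these classes. *Gm2516* lies inside *Gm45341* on the opposite strand, so the level of either gene is uncertain. Among the classes compared, nuclei of *Car3* type came second to layer 6b, with 97.4 CPM of *C130073E24Rik*, 60.2 of *Gm2516* and 52.2 of *Gm45321*. In near-projecting-type nuclei *C130073E24Rik* stood at 45.1 CPM.

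**Figure D3:**
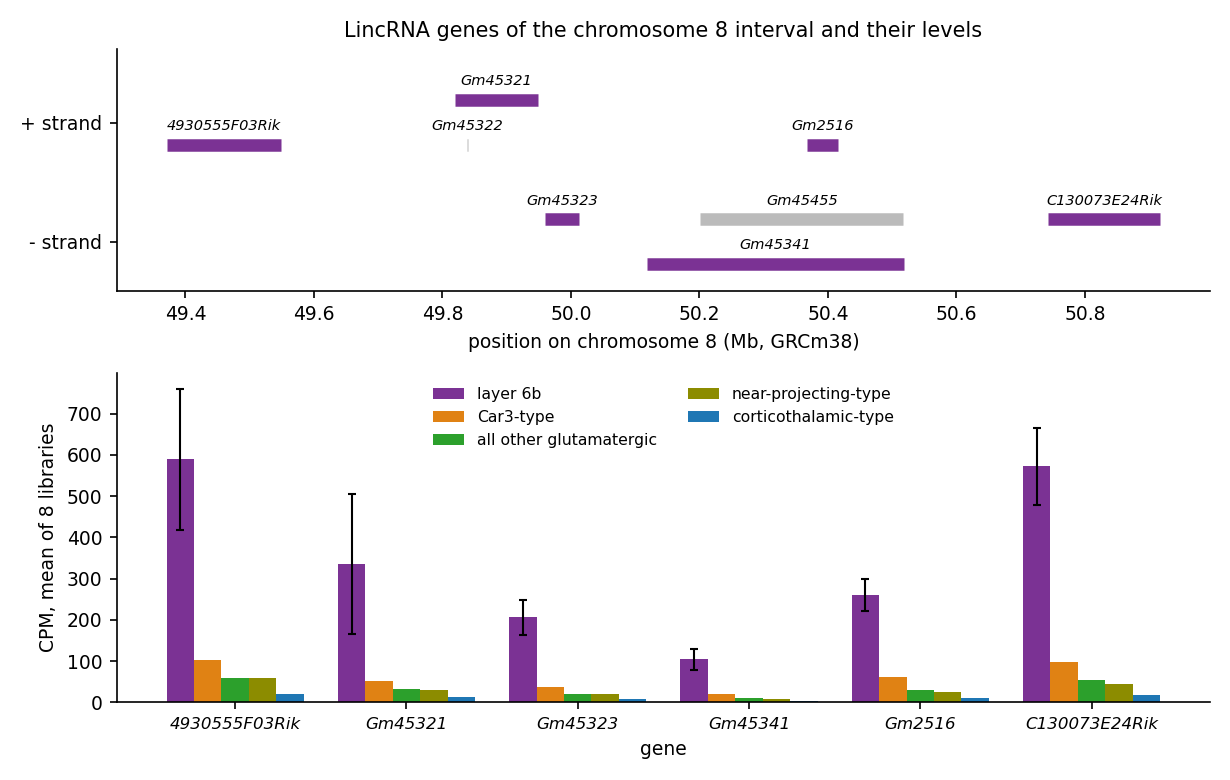
Positions of the lincRNA genes in the interval of chromosome 8 (grey, no UMIs) and their CPM in layer 6b and in 4 comparison classes. Error bars are SD of the 8 layer 6b sums.

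Another 3 of the leading genes were olfactory receptor genes of 1 interval on chromosome 17 (chr17:37508030–37627109, 119 kb). *Olfr111* (chr17:37508030–37532449) averaged 53.7 ± 26.8 CPM in layer 6b, from 32.1 to 98.8, and 0.423 in corticothalamic-type nuclei, with a log2 ratio of 4.79. *Olfr115* (chr17:37608940–37627109) averaged 37.7 ± 24.8 CPM against 0.203 (4.83) and *Olfr112* (chr17:37561668–37569451) 40.1 ± 22.7 against 0.313 (4.66). Against all other glutamatergic nuclei the log2 ratios of *Olfr112*, *Olfr111* and *Olfr115* were 4.34, 4.28 and 4.26. *Olfr113* and *Olfr114*, which lie between *Olfr112* and *Olfr115*, had 15.7 and 6.53 CPM in layer 6b and a mean of less than 1 CPM in both comparison classes. *Olfr116* overlaps *Olfr115* on the same strand and had no UMIs. These genes are members of a large family of similar sequences, so UMIs could be placed on a neighboring copy, and the split between the members is uncertain.

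The genes furthest below corticothalamic-type nuclei were led by the lincRNA *Gm10635* (chr9:79444037–79519302), at 1.56 ± 1.11 CPM in layer 6b against 75.5 (log2 ratio −4.75). *Cdh9* (chr15:16728756–16857094) stood at 14.1 ± 9.39 against 227 CPM (−4.32), with its highest layer 6b library (32.6) far below the lowest corticothalamic-type one (173). The constant genes of the T cell receptor beta chain, *Trbc1* and *Trbc2*, were next to absent from layer 6b, at 1.32 and 0.673 CPM against 26.1 and 15.6 (−4.28 and −3.77); they are paralogs, and UMIs can be placed on either. *Serinc2* had 4.76 against 94.6 CPM (−4.08), *Ddo* 0.950 against 21.9 (−4.00) and *Iqgap2* 9.99 against 174 (−3.87).

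Receptor genes for neuromodulators and peptides were examined as a list of 78 genes, of which 70 had UMIs in layer 6b and 8 had none (*Drd3*, *Drd4*, *Chrm5*, *Chrnb4*, *Adra2b*, *Galr1*, *Crhr2*, *Rxfp3*). Among the 40 genes at the level of the profile, 9 were at least 2-fold higher than in corticothalamic-type nuclei in all 8 libraries and 2 lower, beside 1.52% and 1.17% of all genes compared. Against all other glutamatergic nuclei 5 of 42 were higher and 5 lower, beside 1.47% and 2.42%. *Htr2a* averaged 85.6 ± 14.7 CPM in layer 6b, 10.3 in corticothalamic-type and 33.0 in all other glutamatergic nuclei. The histamine receptor gene *Hrh3* had 66.9 ± 25.8 CPM against 11.8 and 31.1, and *Hrh1* had 50.7 ± 14.3 against 12.8 and 18.3. *Chrm2* (chr6:36388084–36528414) averaged 128 ± 56.1 CPM against 31.6 and 58.7. *Chrm3*, the most abundant gene of the list, had 1497 ± 248 CPM against 977 and 738, and *Oprm1* 499 ± 140.0 against 380 and 163. *Chrna4* had 38.1 CPM against 26.5 in corticothalamic-type and 10.7 in all other glutamatergic nuclei, and *Chrna7* 59.2 against 41.4 and 34.9. Levels near those of corticothalamic-type nuclei were found for *Cckbr* (56.9 against 50.2 CPM), *Chrm1* (59.58 against 69.96), *Htr2c* (37.3 against 34.2), *Sstr2* (37.0 against 29.1) and *Htr2b* (35.9 against 31.2). *Adcyap1r1* had 27.3 CPM against 10.4. Lower than in corticothalamic-type nuclei were *Htr1f* (372 against 556 CPM), *Vipr1* (26.1 against 55.0) and *Adra1b* (21.2 against 38.2). Chosen after their values were seen, *Adra2a* (chr19:54044151–54048982) had 17.9 CPM against 2.87 and 2.21, and *Htr1d* had 13.04 against 0.695 and 2.51. *Adra1a*, chosen in the same way, had 6.69 CPM against 35.4 and 33.6. It was among the 2 genes at least 2-fold lower than in corticothalamic-type nuclei in all 8 libraries.

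Among the families of the marker genes, *Nrxn3* was lower in layer 6b than in corticothalamic-type nuclei (4139 against 6599 CPM), and *Nrxn2* was similar (212 against 189.5). *Nxph3* had 90.2 ± 26.9 CPM against 34.4 and 10.9, *Nxph1* had 37.8 against 38.2 and 62.6, and *Nxph2* had no UMIs in layer 6b where corticothalamic-type nuclei had 5.51 CPM. *Cplx1* was at the level of corticothalamic-type nuclei (41.8 against 35.9 CPM) and *Cplx2* below it in all 8 libraries (28.3 against 88.4), while *Cplx4* had 1 UMI. In the family of *Ctgf*, *Nov* averaged 42.2 ± 16.8 CPM against 18.3 and 34.8, and *Wisp2* had no UMIs. Of the 25 glutamate receptor genes, *Gria2* (1890 ± 311 against 2180 CPM in corticothalamic-type nuclei) and *Grin2b* (1480 ± 162 against 1748) were the most abundant. Of 23 genes at the level of the profile, none was at least 2-fold higher than in corticothalamic-type nuclei in all 8 libraries and 1 was lower, beside 1.52% and 1.17% of all genes, and against all other glutamatergic nuclei 2 were higher and 2 lower, beside 1.47% and 2.42%. These 5 genes were named after their values were seen. *Grm8* was the 1 lower than in corticothalamic-type nuclei (249.8 against 1003 CPM). *Grik3* stood at 621 CPM, against 532 in corticothalamic-type and 181 in all other glutamatergic nuclei, and *Grik4* at 341 against 282 and 124. *Gria4* (385 CPM) and *Grik1* (26.6) were lower than in all other glutamatergic nuclei (952 and 117).

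By genotype, 5 of 7874 genes tested in the layer 6b sums passed an adjusted p of 0.05 in edgeR with Benjamini-Hochberg (0.0635%), 4 higher in *Ifnar1*-/- (0.0508%) and 1 lower (0.0127%). Unadjusted p values below 0.05 were found for 152 genes (1.93%), where chance alone would give 394. That number was 334 with sex as a covariate and 318 with the replicate label as a block, also in edgeR. DESeq2 called 7 genes. With the replicate label as a block the count was 8, and with sex as a covariate it was also 8. Without the filter on low counts, 16 of 20498 genes were called. The count fell to 3 without Wt F1, without Wt M1 or without *Ifnar1*-/- M2, and lay between 4 and 6 when any other library was left out. Females alone gave 7 genes and males alone 2.

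*Gm43713* had 49, 46, 31 and 65 UMIs in the layer 6b sums of Wt and 66, 174, 287 and 176 in those of *Ifnar1*-/-. As CPM after TMM normalization these were 79.0, 93.7, 47.6 and 61.7 against 303, 303, 243 and 251, without overlap. The gene was 1.97 log2 units higher in *Ifnar1*-/- (SE 0.19), with 4 of 4 libraries above every Wt library, and its adjusted p in edgeR with Benjamini-Hochberg was 0.000761. It was called in all 17 alternatives. *Gm43713* (chr3:88845025–88900001) is annotated as antisense and lies inside *Gon4l* (chr3:88835231–88910103) on the opposite strand. *Gon4l* had 73, 52, 52 and 99 UMIs in Wt and 51, 126, 271 and 175 in *Ifnar1*-/-, or 118, 106, 79.9 and 94.0 against 234, 219, 230 and 250 CPM. Every *Ifnar1*-/- library again lay above every Wt library, by 1.24 log2 units (SE 0.15; adjusted p 0.00479 in edgeR with Benjamini-Hochberg). Its call was lost in females alone, 2 libraries against 2 (log2 1.00), and when nuclei with glial UMIs were left out, which kept 120 of 492 nuclei (log2 1.13), and the adjusted p (Benjamini-Hochberg, edgeR or DESeq2) ran from 2.8e-07 to 0.226 over 17 alternatives. Because the genes overlap on opposite strands, the level of either is uncertain. By CPM over all UMIs, all other glutamatergic nuclei had 74.4 and 236 CPM of *Gm43713* in Wt and *Ifnar1*-/-, and 99.8 and 199 of *Gon4l*. On that scale the layer 6b sums had 74.7, 84.8, 47.4 and 62.4 CPM of *Gm43713* in Wt. Those of *Ifnar1*-/- had 274, 280, 247 and 240.

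The other genes that rose in *Ifnar1*-/- lay close together on chromosome 4. *4930578G10Rik* (chr4:42735545–42846248) had 45, 45, 61 and 120 UMIs in Wt and 47, 180, 221 and 205 in *Ifnar1*-/-, which was 72.6, 91.6, 93.7 and 114 against 216, 314, 187 and 292 CPM. The genotypes did not overlap, and the gene was 1.43 log2 units higher (SE 0.20) in 4 of 4 *Ifnar1*-/- libraries, with an adjusted p of 0.00975 in edgeR with Benjamini-Hochberg. Over 17 alternatives its adjusted p (Benjamini-Hochberg, edgeR or DESeq2) ran from 3.3e-10 to 0.391, and the call was lost without Wt F1 (0.0586), Wt M1 (0.0666) or *Ifnar1*-/- M2 (0.0720), where the log2 difference was still 1.33 to 1.43, and in males alone (1.18). *Gm2163* (chr4:42466752–42589938) had 73, 84, 107 and 170 UMIs in Wt and 75, 245, 315 and 271 in *Ifnar1*-/-, or 118, 171, 164 and 161 against 345, 427, 267 and 387 CPM. All 4 *Ifnar1*-/- values were above the Wt values, the difference was 1.21 log2 units (SE 0.17), and the adjusted p in edgeR with Benjamini-Hochberg was 0.0131. That call was lost without Wt F1 (0.0656), Wt M1 (0.0666), Wt M2 (0.0526), *Ifnar1*-/- F2 (0.0671) or *Ifnar1*-/- M2 (0.0945), where the log2 difference was still above 1, and in males alone (0.99), with adjusted p (Benjamini-Hochberg, edgeR or DESeq2) of 4.3e-08 to 0.391 over 17 alternatives. Both are annotated as protein coding in a stretch with near copies of several genes, *4930578G10Rik* overlaps *Gm12394*, *Ccl19* and *Ccl21a*, and *Gm2163* overlaps *Fam205a2*, so their UMIs can be shared among copies and the levels are uncertain.

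*Gm15446* (chr5:109923400–109943936) was the single gene called lower. Its UMIs were 20, 15, 17 and 38 in Wt and 0, 3, 5 and 1 in *Ifnar1*-/-, or 32.3, 30.6, 26.1 and 36.1 CPM against 0, 5.23, 4.24 and 1.43. The genotypes were far apart (31.2 ± 4.13 against 2.72 ± 2.43 CPM; log2 −3.18, SE 0.40, lower in 4 of 4 libraries; adjusted p 0.00538 in edgeR with Benjamini-Hochberg). It was called in 14 of 16 alternatives and lost in females alone (log2 −2.98) and in males alone (−3.27), where 2 libraries stood against 2, with adjusted p (Benjamini-Hochberg, edgeR or DESeq2) of 8.2e-08 to 0.269. *Gm15446* also fell in all other glutamatergic nuclei, from 27.8 CPM over all UMIs in Wt to 4.50 in *Ifnar1*-/- (log2 −2.61, SE 0.14). In corticothalamic-type nuclei it fell from 34.3 to 3.62.

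**Figure D4:**
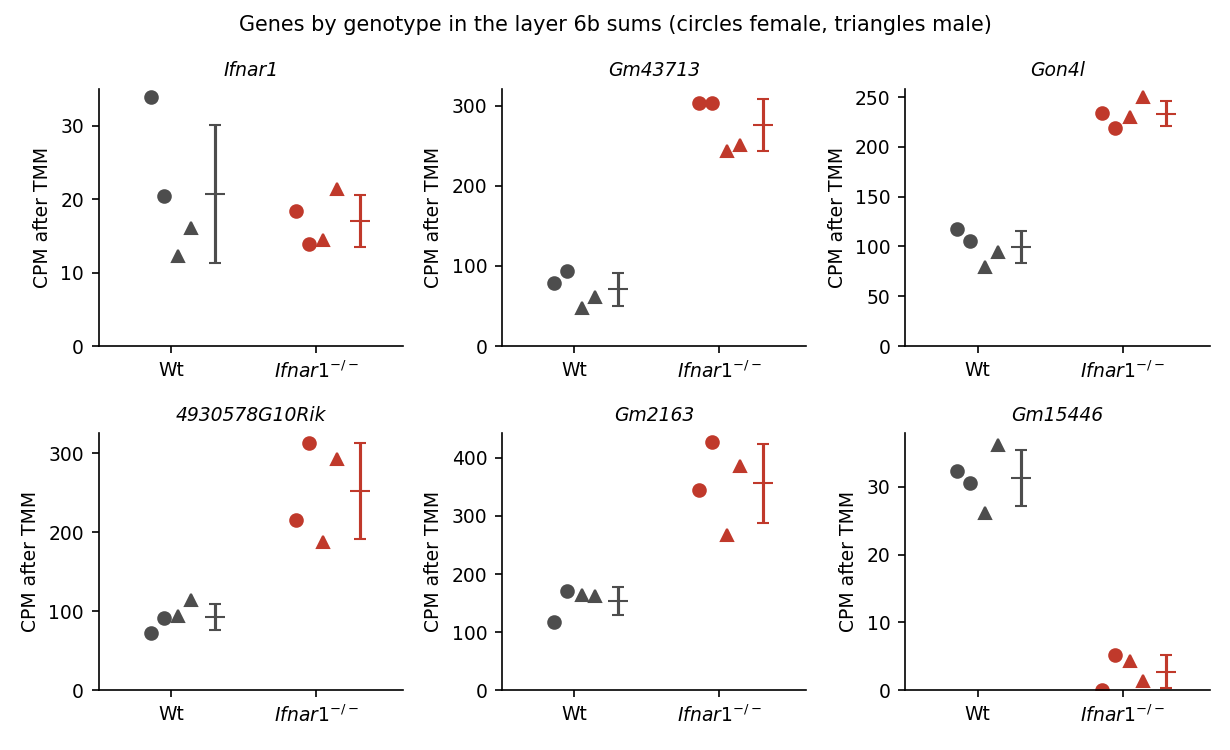
CPM after TMM normalization in the layer 6b sums for *Ifnar1* and the 5 genes with an adjusted p under 0.05 in edgeR. Circles are females, triangles males; bars give mean and SD of 4 libraries.

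The next genes by unadjusted p did not pass. *Gm26848* (chr17:6314199–6493180, lincRNA) had 888, 774, 824 and 1480 UMIs in Wt and 433, 1316, 2601 and 1681 in *Ifnar1*-/-. Scaled for library size this was 1420 ± 127 against 2222 ± 174 CPM without overlap (log2 0.65, SE 0.12, 4 of 4 libraries higher; adjusted p 0.113 in edgeR with Benjamini-Hochberg). *Gm26848* was called (adjusted p with Benjamini-Hochberg) in edgeR with the replicate block (0.0383), with sex as a covariate (0.00450) and without the filter on low counts (0.00843), and in DESeq2 (0.000351), with a range of 0.000351 to 0.818 over 17 alternatives. *Gm12394* (chr4:42781928–42856771), which overlaps *4930578G10Rik* on the opposite strand, had 70.5 ± 16.1 against 206 ± 82.6 CPM after TMM. The log2 difference was 1.52 (SE 0.31), with an adjusted p of 0.237 in edgeR with Benjamini-Hochberg. *Ifnar1*-/- M1, at 85.6 CPM, lay below Wt F2, at 93.7 CPM, so the genotypes overlapped. Over 16 alternatives the adjusted p (Benjamini-Hochberg, edgeR or DESeq2) ran from 3.3e-10 to 1.00. A call of *Gm12394* was gained in 6 of them (adjusted p with Benjamini-Hochberg), namely in DESeq2 (0.00177) and in edgeR without the filter on low counts (3.3e-10), with sex as a covariate (0.00450), with the replicate block (0.00254), in females alone (0.00164) and without *Ifnar1*-/- M1 (0.000641). *Ap2b1* (chr11:83299024–83405035) was lower, at 241 ± 25.6 against 152 ± 11.4 CPM, with UMIs of 157, 133, 140 and 237 against 36, 91, 167 and 101. The 4 *Ifnar1*-/- values lay below all Wt values (log2 −0.67, SE 0.14; adjusted p 0.237 in edgeR with Benjamini-Hochberg). With sex as a covariate *Ap2b1* was called (log2 −0.66; adjusted p 0.0375 in edgeR with Benjamini-Hochberg), and over 17 alternatives its adjusted p ran from 0.0375 to 1.00. *Tpm3-rs7* (chr14:113314608–113316754) counted 56 UMIs over the Wt sums and 16 over those of *Ifnar1*-/- (log2 −1.73, SE 0.39, 4 of 4 lower; adjusted p 0.565 in edgeR with Benjamini-Hochberg). *Gm36388* (chr1:187616852–187651824), antisense to *Esrrg*, had 48 UMIs against 105 (log2 1.21, SE 0.29, 4 of 4 higher; adjusted p 0.723 in edgeR with Benjamini-Hochberg).

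*Ifnar1* itself (chr16:91485238–91507441) had 21, 10, 8 and 17 UMIs in the layer 6b sums of Wt and 4, 8, 17 and 15 in those of *Ifnar1*-/-, 56 against 44 in all. As CPM these were 33.9, 20.4, 12.3 and 16.1 against 18.4, 13.9, 14.4 and 21.4, so the genotypes overlapped, with the highest and the lowest value both in Wt. The mean was 20.7 ± 9.40 against 17.03 ± 3.53 CPM, a log2 difference of −0.28 (SE 0.35), with an unadjusted p of 0.446 and an adjusted p of 1.00 in edgeR with Benjamini-Hochberg. The difference was −0.85 in females and 0.24 in males, and it turned to 0.06 without Wt F1. In all other glutamatergic nuclei *Ifnar1* had 17.3 CPM over all UMIs in Wt and 14.7 in *Ifnar1*-/- (log2 −0.22, SE 0.12). On that scale the layer 6b sums had 32.0, 18.4, 12.2 and 16.3 CPM in Wt and 16.6, 12.9, 14.6 and 20.5 in *Ifnar1*-/-. UMIs counted over the whole gene thus did not show the loss of *Ifnar1* in layer 6b. Which part of the gene they came from was not tested.

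Without the filter on low counts further genes were called in edgeR with Benjamini-Hochberg. *Gm26848*, *Gm12394*, *Fam19a1*, *Prss48*, *Sorbs2os*, *Fth1* and *AC165271.1* had passed the filter and were not called with it by genotype alone, while *Gm12576*, *Gm45388*, *Pkd1l2* and *Gm2164* had been left out by it. *Gm12576* (chr11:83817682–83849493) had 25, 10, 10 and 11 UMIs in Wt layer 6b sums and 0 in all 4 of *Ifnar1*-/-. *Gm45388* (chr8:52080163–52099750) had 0 in all 4 Wt sums and 7, 6, 8 and 13 in *Ifnar1*-/-. *Pkd1l2* had 11, 4, 4 and 18 UMIs against 0, 0, 3 and 1. *Prss48* (chr3:85993810–86002491) had 9, 10, 18 and 26 against 4, 4, 0 and 2. In all other glutamatergic nuclei, by CPM over all UMIs, *Gm12576* fell from 15.4 in Wt to 0.435 in *Ifnar1*-/-. There *Pkd1l2* fell from 8.18 to 1.63 and *Prss48* from 32.1 to 5.88, while *Gm45388* rose from 0.0154 to 2.82. *Fth1* had 25, 13, 61 and 137 UMIs against 13, 8, 155 and 231, which followed sex more than genotype. *AC165271.1* (chr16:94721894–94753438), antisense to *Kcnj6*, had 25, 15, 9 and 23 against 28, 29, 37 and 48, and was also called with the filter and the replicate block (log2 1.36, higher CPM in 4 of 4 pairs of equal label; adjusted p 0.0383 in edgeR with Benjamini-Hochberg, 0.0268 to 1.00 over 6 alternatives).

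The genotype effect in layer 6b was compared with that in all other glutamatergic nuclei of the same libraries by the interaction of class and genotype, with the library as a block. It differed for 7 of 17219 genes in edgeR with Benjamini-Hochberg (0.0407%), with 738 genes at an unadjusted p below 0.05. DESeq2 called 0 of the same genes, with 255 at an unadjusted p below 0.05. Against corticothalamic-type nuclei alone edgeR called 0 of 11406, with 453 at an unadjusted p below 0.05, and DESeq2 also 0, with 126. The count was 14 without Wt M1, 12 without *Ifnar1*-/- F1 and 6 to 10 without any other library. The calls of *Gm2163* and *4930578G10Rik* held whichever library was left out. *Gm2163* averaged 428 and 595 CPM in all other glutamatergic nuclei of Wt and *Ifnar1*-/-. On the same scale of all UMIs, its layer 6b sums had 111, 155, 163.5 and 163 CPM in Wt and 311, 394, 271 and 370 in *Ifnar1*-/-. Its genotype effect was 0.71 log2 units larger in layer 6b (SE 0.12; adjusted p 2.3e-05 in edgeR with Benjamini-Hochberg; 0.58 to 0.83 over the left-out libraries). *4930578G10Rik* averaged 278 and 418 CPM in all other glutamatergic nuclei, and its effect was 0.76 larger in layer 6b (SE 0.13; adjusted p 8.3e-05 in edgeR with Benjamini-Hochberg; 0.61 to 0.99). In corticothalamic-type nuclei the genes rose from 464 to 926 CPM and from 326 to 692 CPM, and the differences from layer 6b were 0.21 and 0.28 (adjusted p 1.00 for each in edgeR with Benjamini-Hochberg). Over all alternatives of the class comparison the adjusted p (Benjamini-Hochberg, edgeR or DESeq2) ran from 1.4e-06 to 1.00 for *Gm2163* and from 4.0e-06 to 1.00 for *4930578G10Rik*, and the smallest of each was against all other glutamatergic nuclei with a library left out.

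Each of the other calls of the class comparison was lost with 1 or more of the libraries left out in turn. *Fam19a1* (chr6:96113154–96657198) had 7, 25, 217 and 148 UMIs in Wt layer 6b sums and 14, 9, 51 and 100 in *Ifnar1*-/-, while all other glutamatergic nuclei averaged 1505 and 1526 CPM. The difference of effects was −1.04 (SE 0.15; adjusted p 5.9e-08 in edgeR with Benjamini-Hochberg). Without Wt M1 it shrank to −0.29 with an adjusted p of 1.00 in edgeR with Benjamini-Hochberg (3.3e-21 to 1.00 over the alternatives). Within layer 6b the genotypes overlapped, with *Ifnar1*-/- lower in 3 of 4 pairs of equal label by CPM over all UMIs. After TMM the M2 pair turned, at 140 CPM in Wt and 143 in *Ifnar1*-/-. *Gm2164* (chr4:124528924–124657169, antisense) had 0, 1, 24 and 11 UMIs against 0, 3, 1 and 0 (−3.02, SE 0.60, highest in the 2 Wt males; adjusted p 0.00172 in edgeR with Benjamini-Hochberg), and its call was lost without Wt M1 (1.00) or *Ifnar1*-/- M1 (0.0747), with 2.8e-05 to 1.00 over the alternatives. *AC121788.1* (chr10:71527281–71678840, lincRNA) had 33, 1, 6 and 16 against 18, 48, 13 and 15 UMIs (1.27, SE 0.25, highest CPM in the 2 *Ifnar1*-/- females; adjusted p 0.00190 in edgeR with Benjamini-Hochberg), and was lost without Wt F2, where the difference was 0.55 (adjusted p 1.00), or *Ifnar1*-/- F2 (0.542), with 1.3e-06 to 1.00 over the alternatives. *Npsr1* (chr9:24097996–24316398) had 6, 8, 7 and 28 UMIs against 0, 6, 2 and 4 (−2.01, SE 0.44, lower CPM in 4 of 4 pairs of equal label; adjusted p 0.0118 in edgeR with Benjamini-Hochberg), and was lost without Wt M2 (1.00) or *Ifnar1*-/- M1 (0.547), with 0.00160 to 1.00 over the alternatives. *Kcnq5*, named after its values were seen, had 81, 62, 236 and 199 UMIs against 94, 156, 272 and 233 (0.52, SE 0.11, higher CPM in 3 of 4 pairs of equal label; adjusted p 0.0135 in edgeR with Benjamini-Hochberg), and was lost without Wt F1 (0.860), Wt F2 (1.00), *Ifnar1*-/- F1 (0.491) or *Ifnar1*-/- M2 (0.166), with 2.3e-07 to 1.00 over the alternatives.

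Gene lists were summarized by counts and medians of the genotype effect, beside all 7874 genes tested, of which 4041 rose and 3833 fell in *Ifnar1*-/- (median log2 difference 0.01). No member of any list was called in edgeR with Benjamini-Hochberg, nor in DESeq2, and the members with an unadjusted p below 0.05 are named. Of the layer 6b marker genes, 14 were tested, 9 were higher and 5 lower (median 0.05). Of the receptor genes 20 of 24 were higher (median 0.14), and their summed levels overlapped, at 3509 ± 502 CPM in Wt and 3571 ± 279 in *Ifnar1*-/-. *Rxfp1* stood at 84.8 ± 22.4 CPM in Wt and 128 ± 27.0 in *Ifnar1*-/- (log2 0.59, unadjusted p 0.0166 in edgeR), *Htr2c* was 0.83 higher (unadjusted p 0.0400) and *Hcrtr2* differed by −0.99 (unadjusted p 0.0220), each with an adjusted p of 1.00 in edgeR with Benjamini-Hochberg. Glutamate receptor genes split into 11 higher and 9 lower of 20 (median 0.02). Among neurexin and neurexophilin genes outside the rule, *Nrxn3* differed by 0.04 (SE 0.13), *Nrxn2* by 0.11 (SE 0.16), *Nxph3* by 0.24 (SE 0.23) and *Nxph1* by 0.21 (SE 0.51). In the complexin list *Cplx1* and *Cplx2* differed by 0.28 (SE 0.25) and 0.51 (SE 0.37), and in the *Ctgf* family *Nov* and *Cyr61* by 0.15 (SE 0.30) and 0.74 (SE 0.41). Corticothalamic genes had 2 higher and 6 lower (−0.08).

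Of 65 interferon response genes present in the files, 47 had UMIs in layer 6b, 18 had none, and only 5 were abundant enough for the test (*Adar*, *Jak1*, *Stat2*, *Tyk2*, *Ifi27*), 1 higher and 4 lower (median −0.29). Summed over the list, levels were 375, 404, 400.3 and 409 CPM in Wt and 315, 336, 383 and 357 in *Ifnar1*-/-, where the highest *Ifnar1*-/- library lay above the lowest Wt library, and *Ifnar1*-/- was lower in 4 of 4 pairs of equal label. The sums averaged 397 ± 15.0 against 348 ± 29.0 CPM. Of the 2145 UMIs of the list, *Adar* held 598, *Jak1* 322 and *Stat2* 209. Named after their values were seen, *Isg15* had 5 UMIs, and *Ifit1*, *Irf7* and *Rsad2* had none. The sum therefore says little about these 4 genes. Immediate early genes had 1 higher and 3 lower of 4 (median −0.05), with *Nr4a1* and *Egr1* as the most abundant. Mitochondrially encoded genes had 8 higher and 3 lower of 11 (0.29), led by *mt-Co3* and *mt-Atp6*, and nuclear genes of oxidative phosphorylation 30 higher and 21 lower of 51 (0.03). Genes of familial Parkinson's disease had 8 higher and 5 lower of 13 (0.06), with *Dnajc6* the most abundant. Among 35 genes near *Ifnar1* on chromosome 16, 21 were higher and 14 lower (0.03), *Dscam* and *Ttc3* were the most abundant, and *Adamts1* had the smallest unadjusted p in edgeR (log2 1.56, p 0.00482, adjusted p 1.00 with Benjamini-Hochberg).

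Marker genes of other cells were counted in the layer 6b sums, and their source was not tested. All 9 oligodendrocyte genes had UMIs, with summed levels of 82.3, 171, 241 and 343 CPM in Wt and 295, 54.7, 170.1 and 273 in *Ifnar1*-/-, beside 25861 in oligodendrocyte nuclei; 3 were tested and all 3 were lower (median −0.04). All 9 microglial genes had UMIs as well, led by *P2ry12*, at 107, 97.7, 138 and 135 against 145, 138, 149 and 131 CPM, with 3 of 3 higher (0.43). For oligodendrocyte precursors all 6 genes were present with 71 UMIs in all, most of *Vcan* (31), and none reached the test. The 8 astrocyte genes summed to 1037 ± 69.8 and 1165 ± 134 CPM, of which *Slc1a2* held 6040 of 6308 UMIs, and 2 of 2 tested were higher (0.15). Endothelial genes had UMIs in 5 of 7, led by *Tek*, with *Cldn5* and *Rgs5* at 0, a summed level of 63.0 ± 6.88 against 66.9 ± 8.88 CPM and 1 of 1 higher (0.13).

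GABAergic genes had UMIs in 11 of 12 with *Dlx1* at 0, led by *Adarb2*, and summed to 168, 114, 113 and 157 CPM in Wt and 269.7, 85.3, 161 and 139 in *Ifnar1*-/-, with 1 higher and 2 lower (median −0.24). Striatal genes were all 8 present, at 979 ± 165 and 987 ± 143 CPM, nearly all of it *Pde10a* (5036 of 5601 UMIs), with 2 of 2 higher (0.14). Upper layer genes, led by *Cux1*, summed to 108, 140.1, 225 and 129 CPM in Wt and 324, 130, 160 and 167 in *Ifnar1*-/-, where F1 alone lay above the highest Wt library, against 746 in all other glutamatergic nuclei, with 2 of 2 higher (0.57). Layer 5 genes of extratelencephalic type, led by *Bcl11b*, gave 175, 146, 168 and 159 CPM in Wt and 87.1, 109, 192 and 153 in *Ifnar1*-/- (1 lower of 1, −0.13). Those of intratelencephalic type, led by *Il1rapl2*, gave 499 ± 46.5 and 483 ± 91.7 CPM (1 higher and 3 lower, −0.05). Near-projecting genes, led by *Vwc2l*, gave 160.1, 287.5, 260 and 289 CPM in Wt and 510, 236, 313 and 217 in *Ifnar1*-/- (4 higher of 4, 0.21), where F1 was the highest and 1 further library, M1, lay above all Wt libraries. Of the *Car3* list 5 of 7 genes had UMIs with *Car3* and *Osr1* at 0, most of them *Nr4a2* (590 of 772), at 134 ± 13.3 and 135 ± 39.9 CPM (1 higher of 1, 0.08).

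Sex separated the layer 6b sums more than genotype did. With genotype as a covariate, 630 of 7874 genes differed by sex in edgeR with Benjamini-Hochberg (8.00%), 355 higher in males and 275 lower. The first principal component held 57.2% of the variance, and on it all 4 females lay below 0 and all 4 males above. The second held 19.8%, with *Ifnar1*-/- F1 at −18.8 and the other libraries between −3.35 and 10.5. *Xist* had 558 and 565 UMIs in Wt females, 193 and 539 in *Ifnar1*-/- females and 0, 0, 0 and 1 in the males. *Eif2s3y* had none in any female and 76, 154, 253 and 104 in the males, while *Uty* had 1, 1, 2 and 9 in the females, with 9 in *Ifnar1*-/- F2, and 74, 115, 124 and 82 in the males. The genotype effect differed by sex for 0 of 7874 genes in edgeR with Benjamini-Hochberg, with 322 at an unadjusted p below 0.05, and for 0 in DESeq2, with 95.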

How the data were processed

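The deposited files held raw UMI counts of 31053 genes per barcode for each of the 8 libraries (Single Cell 3' chemistry version 3), which the authors had made with Cell Ranger against a pre-mRNA mm10 reference; the file headers name Cell Ranger 3.1.0, and the authors' notes name Seurat 3.1.5. Counts were taken as deposited, and no value was scaled before the nuclei were chosen. Genes that share a symbol (35 symbols) were kept apart by gene identifier. UMIs of the chosen nuclei were summed per library. CPM divide by all UMIs of the sum, except for CPM of individual genes in the genotype test. Those divide by the UMIs of the genes tested, multiplied by the TMM factor of the library. Genotypes were compared with the quasi-likelihood test of edgeR 4.0.16 in R 4.3.3 after TMM and filterByExpr, with genotype as the only term and Benjamini-Hochberg over all genes tested; DESeq2 1.42.0 was the other tool. Differences between classes were tested as the interaction of class and genotype with the library as a block. Shares and depths were compared by exact permutation. Scrublet was run through scanpy 1.11.5 in Python 3.11.15 with numpy 2.4.6, scipy 1.17.1 and pandas 2.3.3, and figures were drawn with matplotlib 3.10.9. The test code was tested on simulated data.

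Log2 ratios between classes had 1 CPM added to both sides, used genes with a mean of at least 5 CPM in either class, and were called where all 8 libraries passed 2-fold. Corticothalamic-type nuclei needed at least 2 of *Foxp2*, *Syt6* and *Rprm* with a sum of at least 3. Near-projecting-type nuclei needed the same of *Tshz2*, *Vwc2l* and *Slc17a8*, and *Car3*-type nuclei of *Car3*, *Oprk1*, *Synpr* and *Gnb4*, each without the classes before it. Oligodendrocyte nuclei had at least 3 genes of the oligodendrocyte list and no UMI of *Slc17a7*, *Gad1* or *Gad2*. Named genes were drawn from the following. By genotype they were *Ifnar1*, all genes with an adjusted p under 0.05, and those with the smallest unadjusted p up to 10 in all; for the class comparison the 6 with the smallest p; for the profile the 12 highest and 8 lowest against corticothalamic-type nuclei and the 10 highest against all other glutamatergic nuclei. Of the receptor, complexin, neurexophilin and *Ctgf* families the genes at 20 CPM or more were named, and of other lists the 2 most abundant. The nuclei and the lists were chosen with earlier results of these data known. Coordinates are those of GRCm38 (GENCODE release M21). Whether the gene models of the pre-mRNA reference have the same positions was not tested. Intervals and overlaps, above all those of lincRNA genes, are therefore uncertain to that extent. Replicate labels repeat across genotypes, and equal labels correlated in their deviations from the genotype mean (r of 0.108, 0.319, 0.377 and 0.202 for the pairs F1, F2, M1 and M2), but these pairs share sex, and after removal of the sex means r was −0.07 to −0.09, so the label was used as a block only as an alternative. Whether equal labels match animals across genotypes is not known, so counts over such pairs are descriptions only.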

Additional observations from a re-analysis of the deposited data

Results flagged for a closer look

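A library was marked where its value lay far from the other 3 of its genotype by a Dixon ratio. Of 74 groups of 4 examined this was so for 4, and 3.7 would be expected by chance at 1 in 20. The layer 6b share of Wt M2 was 3.01% of glutamatergic nuclei, against 1.40% to 1.55% in the other Wt libraries. *Tmem163* stood at 511 CPM in Wt M2, against 387 to 401 in the others. *Drd1* was at 91.9 CPM in *Ifnar1*-/- M1, against 60.1 to 62.2. *Hsd17b2* had 1.37 CPM, from 1 UMI, in *Ifnar1*-/- M2 and 0 in the other *Ifnar1*-/- libraries. With the others at 0, any UMI gives a ratio of 1, so this mark says nothing about the library. In edgeR, the genotype effect in layer 6b was called different from that in all other glutamatergic nuclei, in log2 units, for *Fam19a1* (−1.04), *Gm2163* (0.71), *4930578G10Rik* (0.76), *Gm2164* (−3.02), *AC121788.1* (1.27), *Npsr1* (−2.01) and *Kcnq5* (0.52). DESeq2 called 0 genes, and edgeR called 0 against corticothalamic-type nuclei. Only the calls of *Gm2163* and *4930578G10Rik* held whichever library was left out.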

How the results depend on the processing

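Other settings changed the following results, and the cause was not tested. By genotype 5 genes were called in layer 6b in edgeR with Benjamini-Hochberg; the count was 16 without the filter on low counts, 8 with sex as a covariate, 8 with the replicate block, 2 in males alone, 3 without nuclei with glial UMIs (120 of 492 nuclei kept, 1845 genes tested), and 3 to 6 with a library left out. The class comparison called 7 genes in edgeR with Benjamini-Hochberg, 0 against corticothalamic-type nuclei, 0 in DESeq2 and 6 to 14 with a library left out. The share of layer 6b nuclei differed by 0.0114 percentage points; the sign reversed to −0.144 after thinning and to −0.0768 with a marker sum of at least 5, and ran from −0.263 to 0.387 with a library left out. The difference in median UMIs of −682 ran from −2027 to 462 and that in mitochondrially encoded share of 0.0496 from −0.0600 to 0.130 with a library left out. *Ifnar1* (log2 −0.28) reversed to 0.24 in males alone and ran from −0.45 to 0.057 with a library left out.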
